A study of Mus musculus with 13 samples.

Results

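Neutrophil granule proteins and calprotectin are encoded by genes that mark successive steps of granulocyte formation, and 10 of them were followed here in F4/80+ cells of mouse E13.5 fetal liver (FL). The genes were listed by name. They comprise 4 primary granule genes (Mpo, Elane, Prtn3 and Ctsg), the 2 calprotectin genes (S100a8 and S100a9) and 4 later granule genes (Ngp, Camp, Ltf and Lcn2), out of 55904 distinct gene names over the deposited tables. Each of the 10 was found in the bulk tables and in the single-cell table. Bulk RNA-seq covered F4/80+ cells sorted from EKLF+/+ (wild type) and EKLF-/- (null for EKLF, the erythroid Krüppel-like factor, also called Klf1) FL, and F4/80+ cells of pEKLF-GFP FL sorted into EKLF/GFP+ and EKLF/GFP- fractions, with 3 libraries in each of the 4 groups. In the pEKLF-GFP line a single-copy transgene drives GFP from the EKLF promoter, so GFP reports the activity of that promoter and not EKLF protein itself, and these embryos are otherwise wild type. All samples were labelled C57BL/6, while the methods of the study list the null allele on 129S4/SvJae, so any difference in strain background cannot be told apart from genotype in that comparison. Per the labels, Trizol served for RNA of the EKLF/GFP- fraction and the Agilent Nanoprep kit for the EKLF/GFP+ fraction, so the RNA preparation and the reporter fraction cannot be told apart. One further EKLF+/+ library held single cells from pooled littermate embryos, enriched for F4/80 with magnetic beads in the presence of a peptide that blocks contacts between Icam4 and αv integrin.

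Primary (azurophil) granules are filled at the promyelocyte step. Mpo makes hypochlorous acid, Elane, Prtn3 and Ctsg are serine proteases of one family, and all are transcribed mainly in promyelocytes and fall silent as the cell matures. Secondary (specific) granules are filled later, at the myelocyte and metamyelocyte steps, with the iron-binding lactoferrin Ltf, the siderophore-binding Lcn2, the antimicrobial cathelicidin Camp and the related neutrophilic granule protein Ngp. S100a8 and S100a9 form calprotectin, a calcium- and zinc-binding complex that fills the cytosol of neutrophils and is also made by monocytes. Monocyte precursors carry Mpo, Elane, Prtn3 and Ctsg transcripts as well, and the transcription factors PU.1 (Spi1), C/EBP family members and Gfi1 act on these genes. FL is a main site of blood formation at this stage and holds granulocyte precursors beside erythroid cells and macrophages.

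The members lie on 6 chromosomes of the mouse genome (GRCm38). Prtn3 (chr10:79874476-79883174, plus strand) and Elane (chr10:79886247-79888215, plus strand) are neighbours with a gap of 3072 bases. S100a8 (chr3:90668978-90670035, plus strand) and S100a9 (chr3:90692632-90695721, minus strand) are 22596 bases apart. Camp (chr9:109847379-109849617, minus strand), Ngp (chr9:110419747-110423012, plus strand) and Ltf (chr9:111019271-111042767, plus strand) lie on 1 chromosome with gaps of 570129 and 596258 bases. Mpo is at chr11:87793581-87804413 on the plus strand, Ctsg at chr14:56099881-56102574 on the minus strand and Lcn2 at chr2:32384633-32388252 on the minus strand.

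Promoter sequence of all 10 genes was taken from RefSeq (GRCm38.p6), as windows of 300 bases reaching from 250 bases before the start to 50 bases after it. Both strands were searched for 4 short motifs, spelled CCNCNCCC for EKLF, TTGCNNAA for the C/EBP family, GAGGAA for PU.1 and AGATAA for GATA factors. GAGGAA was found in 4 of 4 primary, 2 of 4 later and 1 of 2 calprotectin windows, against 28.3% of 32851 RefSeq promoters. TTGCNNAA was found in no primary window, 3 of 4 later and 1 of 2 calprotectin windows, against 10.8% of all promoters. CCNCNCCC was in 6 of the 10 windows and in 49.5% of all promoters, and AGATAA was in 2 of the 10 and in 11.2% of all. The upstream stretches of 2 primary genes, 1 calprotectin gene and 1 later gene are shown 5′ to 3′ on the strand of the gene, as examples of windows with and without each motif. They do not stand for their classes, since of the other windows S100a8 held GAGGAA alone of the 4 motifs, Ngp TTGCNNAA alone and Camp CCNCNCCC alone. Capitals mark the matches to the 4 motifs, on either strand, and bases inside the gene as drawn in the GENCODE annotation were left out. Elane is chr10:79886062-79886246 (plus strand), Ctsg is chr14:56102575-56102824 (minus strand), S100a9 is chr3:90695722-90695971 (minus strand) and Ltf is chr9:111019042-111019270 (plus strand).
Elane: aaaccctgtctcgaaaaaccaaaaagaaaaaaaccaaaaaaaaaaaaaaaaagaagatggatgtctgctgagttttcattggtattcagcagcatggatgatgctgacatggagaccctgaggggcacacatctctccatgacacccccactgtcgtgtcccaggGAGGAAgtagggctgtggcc
Ctsg: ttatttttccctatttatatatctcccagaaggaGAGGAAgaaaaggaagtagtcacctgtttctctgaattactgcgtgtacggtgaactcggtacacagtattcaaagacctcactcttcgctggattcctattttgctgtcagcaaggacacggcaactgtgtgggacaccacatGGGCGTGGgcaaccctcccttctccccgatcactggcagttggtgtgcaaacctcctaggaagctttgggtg
S100a9: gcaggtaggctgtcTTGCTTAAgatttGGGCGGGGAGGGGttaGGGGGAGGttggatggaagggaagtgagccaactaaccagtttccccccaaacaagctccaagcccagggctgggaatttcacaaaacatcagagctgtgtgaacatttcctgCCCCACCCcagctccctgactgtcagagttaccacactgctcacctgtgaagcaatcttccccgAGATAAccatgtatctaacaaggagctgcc
Ltf: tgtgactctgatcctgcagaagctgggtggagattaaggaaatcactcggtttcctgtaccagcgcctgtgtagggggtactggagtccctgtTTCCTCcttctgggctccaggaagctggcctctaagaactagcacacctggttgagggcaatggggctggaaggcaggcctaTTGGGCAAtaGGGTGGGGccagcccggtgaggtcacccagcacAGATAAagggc
Counted back from the RefSeq start, GAGGAA began 85 bases before that of Elane and 216 bases before that of Ctsg, while the reverse strand of Ltf held it 157 bases before its start. The C/EBP form began 236 bases before S100a9 and 75 before Ltf. These are matches of letters only, and binding was not measured here.

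The EKLF+/+ and EKLF-/- libraries held 10695514 to 15362161 reads on genes and the EKLF/GFP libraries 22723279 to 28736396 estimated reads. The 2 sets were processed by different pipelines and fitted apart. Reads not counted on a gene made up 71.1%, 72.7% and 72.3% of the EKLF+/+ libraries and 67.2%, 68.9% and 68.5% of the EKLF-/- libraries. These ranges did not overlap, so this share cannot be told apart from genotype. Klf1 itself was lower in every EKLF-/- library than in every EKLF+/+ library, at 58.7, 64.2 and 57.1 against 362, 305 and 376 CPM (read counts scaled to a common library size), and higher in EKLF/GFP+ (101, 90.2 and 87.3 CPM) than in EKLF/GFP- (34.6, 45.7 and 28.6 CPM). The labels do not say which libraries came from separate embryos or litters, so the p-values measure the spread between these libraries. CPM below are scaled by edgeR's trimmed mean of M values (TMM), and fold changes come from its quasi-likelihood fit over all genes with Benjamini-Hochberg adjustment at a threshold of 0.05.

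In EKLF-/- cells the granule genes other than Mpo, Ngp, Ltf and Lcn2 were higher than in EKLF+/+ cells. Of the 10 members 6 were called higher and none lower, where 9.72% of the 12753 genes tested were called higher and 10.6% lower. The primary class had 3 of 4 called (median log2 fold change 1.37), calprotectin 2 of 2 (median 1.13) and the later class 1 of 4 (median 0.49), beside a median of 0.02 over all genes tested.

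Elane, neutrophil elastase, had the widest change of the members. Its level was 164, 134 and 123 CPM in EKLF+/+ and 298, 1027 and 427 CPM in EKLF-/-, so the groups did not overlap and EKLF-/- replicate 2 stood far above its group. The fold change was 4.16 (log2 2.06 ± 0.41 SE, n = 3 and 3, edgeR adjusted p = 0.0119). Its chromosomal neighbour Prtn3, proteinase 3, measured 357, 371 and 300.2 CPM in EKLF+/+ and 573, 1439 and 763 CPM in EKLF-/-. This was 2.70-fold (log2 1.43 ± 0.30, edgeR adjusted p = 0.0154), again with no overlap. Ctsg, cathepsin G, measured 156, 110 and 146 CPM against 217, 566 and 238 CPM, which was 2.48-fold (log2 1.31 ± 0.35, edgeR adjusted p = 0.0333). Mpo, the myeloperoxidase, read 3626, 4276 and 2973 CPM in EKLF+/+ and 4047, 7437 and 4621 CPM in EKLF-/-, so the lowest EKLF-/- library lay within the EKLF+/+ range. Its fold change of 1.48 (log2 0.57 ± 0.24) did not pass the test (edgeR adjusted p = 0.118).

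Both calprotectin subunits rose. S100a8 was at 361, 460 and 499 CPM in EKLF+/+ and 682, 1501 and 854 CPM in EKLF-/- (2.30-fold, log2 1.202 ± 0.28, edgeR adjusted p = 0.0207). S100a9 was at 492, 724 and 679 CPM against 939, 1862 and 1159 CPM (2.09-fold, log2 1.06 ± 0.26, edgeR adjusted p = 0.0244). Neither gene overlapped between groups, and EKLF-/- replicate 2 was the highest library for both.

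Of the later genes Camp rose. It stood at 100.2, 168 and 152 CPM in EKLF+/+ and 221, 442 and 324 CPM in EKLF-/- (2.34-fold, log2 1.23 ± 0.27, edgeR adjusted p = 0.0172), with no overlap. Lcn2 had 95.7, 161 and 119 CPM against 147, 219 and 187 CPM, overlapping by a single library in each group, and its log2 difference of 0.56 ± 0.21 did not pass (edgeR adjusted p = 0.0862). Ngp had 280, 514 and 403 CPM against 423, 573 and 608 CPM (log2 0.42 ± 0.23, edgeR adjusted p = 0.197). Ltf had 323, 595 and 419 CPM against 435, 537 and 557 CPM (log2 0.19 ± 0.21, edgeR adjusted p = 0.522), and its highest value was in an EKLF+/+ library. Members whose groups did not overlap numbered 6, the same 6 that were called, where 46.3% of all genes tested did not overlap. The difference between the classes was not itself tested.

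**Figure D1:**
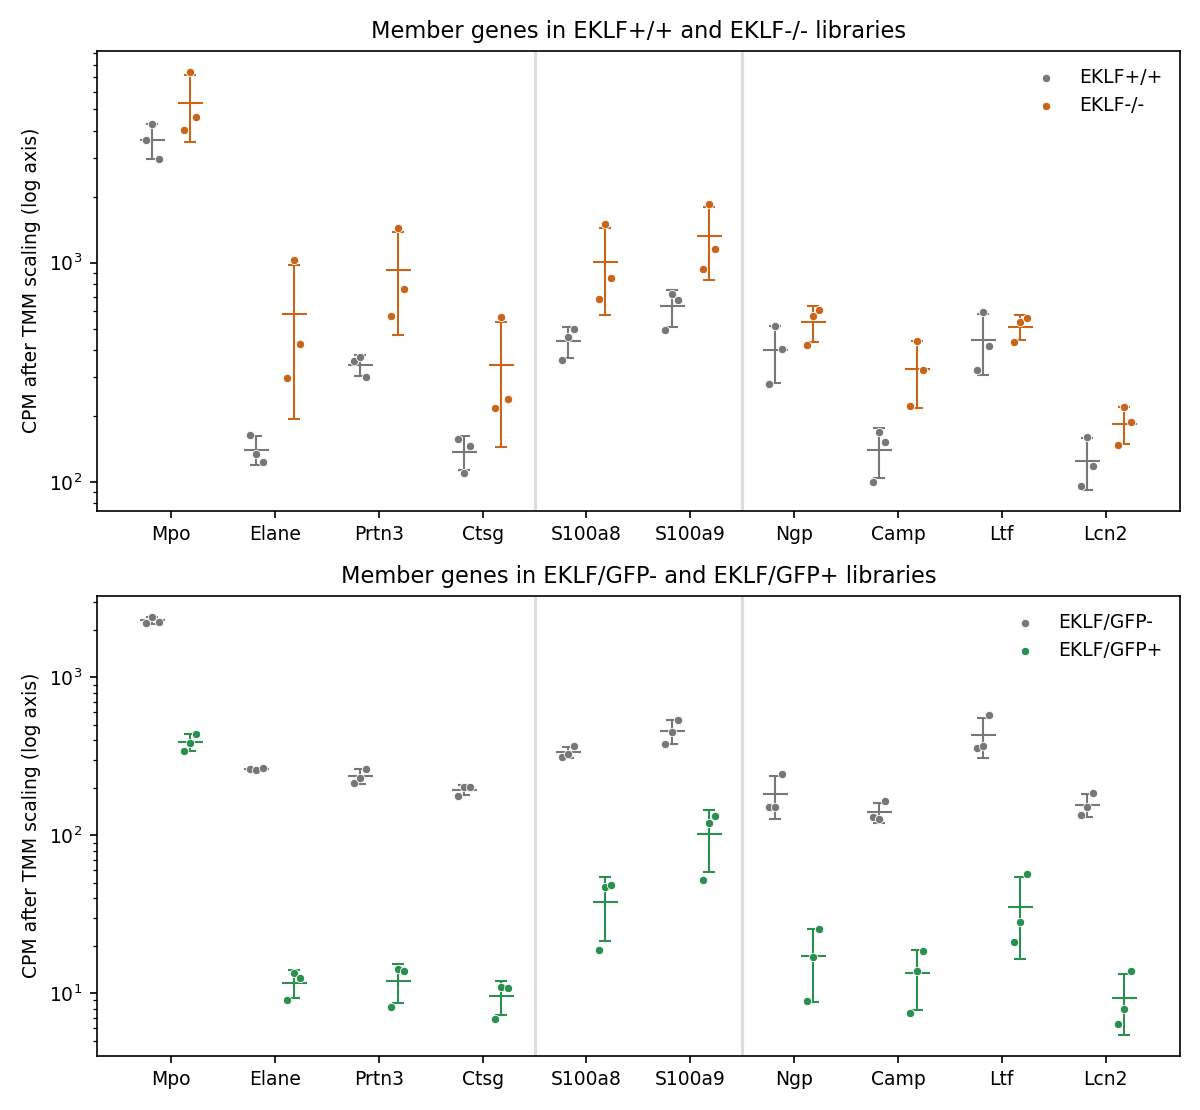
CPM (log axis) of each of the 10 members in every bulk library, with 1 point per library, the group mean as a horizontal line and bars of 1 SD (n = 3). Every member is lower in all 3 EKLF/GFP+ libraries than in all 3 EKLF/GFP- libraries, while in the EKLF-/- group the second replicate is the highest library for Mpo, Elane, Prtn3, Ctsg, S100a8, S100a9, Camp and Lcn2.

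The count of called members changed when a library was left out. With EKLF+/+ replicate 1 left out 1 member was called (Elane, edgeR adjusted p = 0.0394), and with replicate 2 left out 1 (Camp, edgeR adjusted p = 0.0445). With replicate 3 left out none was called (lowest edgeR adjusted p = 0.064, shared by Elane and Camp). Leaving out EKLF-/- replicate 2, the library with the highest values, kept 6 calls with smaller differences, at log2 1.35 for Elane, 0.95 for Prtn3, 0.71 for Ctsg, 0.79 for S100a8, 0.72 for S100a9 and 0.94 for Camp. Without EKLF-/- replicate 1 the count was 8, and without replicate 3 it was 4. Calls over all genes moved too, with 346, 417 and 370 genes higher without EKLF+/+ replicate 1, 2 or 3 and 1730, 1288 and 426 without EKLF-/- replicate 1, 2 or 3, where all libraries gave 1239. DESeq2 called 7 members, with Lcn2 added (DESeq2 adjusted p = 0.044). A correction for gene length lowered Elane to log2 1.67, Prtn3 to 1.17 and Ctsg to 0.95 and kept their calls, while 1852 of all genes were then called higher and 1323 lower, against 1239 and 1356 without it. Each of the 140 refitted values of the members was above 0.

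Other genes of the granulocyte programme were read from lists of the pathway. Of 9 other primary granule or promyelocyte genes 6 rose and none fell (median log2 0.88), among them the serine protease Prss57 (1.67), the promyelocyte membrane protein Ms4a3 (1.46) and Serpinb1a, an inhibitor of neutrophil serine proteases (1.10). Of 12 other secondary and tertiary granule genes 4 rose and 1 fell (median 0.76). Fcnb, a ficolin of granulocyte precursors (1.59), Pglyrp1, a peptidoglycan-binding protein (1.18), and haptoglobin Hp (0.87) rose. The collagenase Mmp8, a gene of the maturing neutrophil, was the one that fell (-0.60, edgeR adjusted p = 0.0374). Among 8 granulocyte transcription factors 4 rose, including Cebpe (1.15), Gfi1 (1.15) and Cebpd (0.94), and Myb fell (-0.40, edgeR adjusted p = 0.0293). The NADPH oxidase had 2 of 6 subunits higher (Cyba 0.95 and Ncf1 0.59). Only Cxcr4 (0.47) of 10 neutrophil and calprotectin receptors tested was called, and 9 were not. The S100 family gave S100a1 (1.32) and S100a11 (1.17) as 2 of 6 called. Eosinophil, mast cell and basophil granule genes gave Prg3 (1.35) and Prg2 (1.23), the major basic proteins of eosinophil granules, as 2 of 6. Over these lists 21 of 57 genes tested were called higher and 2 lower, where 9.72% and 10.6% of all genes tested were. Without EKLF+/+ replicate 1, 2 or 3 the higher calls numbered 6, 8 and 3, and without EKLF-/- replicate 3 they numbered 10. The lower calls numbered 0 without EKLF+/+ replicate 2 or EKLF-/- replicate 3, and 1 without EKLF+/+ replicate 1 or 3.

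Markers of other cells were read in the same libraries, where 9.72% of all genes tested were called higher and 10.6% lower. The summed level of the 11 neutrophil-like markers measured that are not members ranged over 299.9 to 401 CPM in EKLF+/+ and 445 to 697 CPM in EKLF-/-, with 3 higher and 1 lower. Monocyte-like markers summed to 373 to 429 CPM and 463 to 561 CPM, with 1 of 8 called higher, a share near that of all genes. Erythroid-like markers summed to 9151 to 10400 CPM in EKLF+/+ and 3563 to 5614 CPM in EKLF-/-, with 5 of 8 tested lower and Hba-a1 listed at 0 in all 6 libraries. Endothelial-like markers summed to 163 to 204 CPM in EKLF+/+ and 91.3 to 115 CPM in EKLF-/- (5 of 6 lower), and mesenchymal-like markers to 35.8 to 131 and 20.6 to 33.2 CPM (4 of 6 lower). Macrophage-like markers summed to 306 to 354 and 313 to 445 CPM with 3 of 11 tested lower, and progenitor-like markers to 890.1 to 1051 and 875 to 1064 CPM with 2 of 9 higher and 4 lower. Mast cell- or basophil-like markers summed to 179 to 226.2 and 225.9 to 272 CPM, with 2 of 6 tested higher and none lower. Megakaryocyte-like markers summed to 204 to 342 and 290.4 to 363 CPM (1 of 8 higher, 1 lower), lymphoid-like markers to 20.5 to 23.7 and 23.4 to 57.2 CPM (1 of 4 tested higher, 1 lower), and hepatoblast-like markers to 1024 to 1607 and 1430.4 to 1628 CPM (none of 7 called). In bulk libraries, more cells of a type and more RNA per cell cannot be told apart, and the part of these other cells in the members' changes was not tested.

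In the reporter comparison all 10 members were lower in EKLF/GFP+ than in EKLF/GFP- F4/80+ cells, where 25.8% of the 14259 genes tested were called lower and 18.9% higher. With a correction for gene length 2821 of all genes were lower and 4746 higher, against 3678 and 2696 without it, and all 10 members stayed called lower. No member overlapped between the groups, against 55.7% of all genes tested. The primary class had a median log2 difference of -4.32, the later class -3.51 and calprotectin -2.66, beside -0.01 over all genes.

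Elane was at 265, 260 and 269 CPM in the EKLF/GFP- libraries and at 9.03, 13.47 and 12.6 CPM in EKLF/GFP+. That was 22.7-fold lower (log2 -4.50 ± 0.15 SE, n = 3 and 3, edgeR adjusted p = 5.42e-06). Ctsg had 178, 201 and 203 CPM against 6.89, 10.99 and 10.8 CPM, 20.3-fold lower (log2 -4.35 ± 0.18, edgeR adjusted p = 6.5e-06). Prtn3 had 215, 231 and 264 CPM against 8.12, 14.1 and 13.8 CPM, 19.7-fold lower (log2 -4.30 ± 0.22, edgeR adjusted p = 9.97e-06). Mpo was at 2224, 2432 and 2242 CPM in EKLF/GFP- and 344, 382 and 440.0 CPM in EKLF/GFP+, 5.92-fold lower (log2 -2.56 ± 0.11, edgeR adjusted p = 7.24e-06).

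Of the later genes, Lcn2 was at 135, 151 and 184 CPM against 6.35, 7.96 and 13.8 CPM (16.8-fold lower, log2 -4.07 ± 0.28, edgeR adjusted p = 2.74e-05). Ltf had 356, 367 and 576 CPM against 21.3, 28.2 and 56.6 CPM (12.3-fold lower, log2 -3.62 ± 0.38, edgeR adjusted p = 0.000173). Ngp had 151, 151 and 245 CPM against 8.88, 17.0 and 25.5 CPM (10.7-fold lower, log2 -3.41 ± 0.38, edgeR adjusted p = 0.000214). The third replicate was the highest of its group for each of these genes, in both fractions. Camp had 131, 127 and 164 CPM against 7.54, 13.9 and 18.6 CPM (10.6-fold lower, log2 -3.40 ± 0.30, edgeR adjusted p = 6.85e-05).

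Calprotectin transcripts were lower as well. S100a8 had 313, 326 and 369 CPM in EKLF/GFP- and 18.8, 47.3 and 48.2 CPM in EKLF/GFP+ (8.83-fold lower, log2 -3.14 ± 0.33, edgeR adjusted p = 0.000159). S100a9 had 381, 449 and 541 CPM and 52.1, 120.1 and 132 CPM (4.52-fold lower, log2 -2.17 ± 0.32, edgeR adjusted p = 0.000929). The first EKLF/GFP+ library was the lowest for both. All 170 refitted values of the members, over every alternative, were below 0 and kept their calls.

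**Figure D2:**
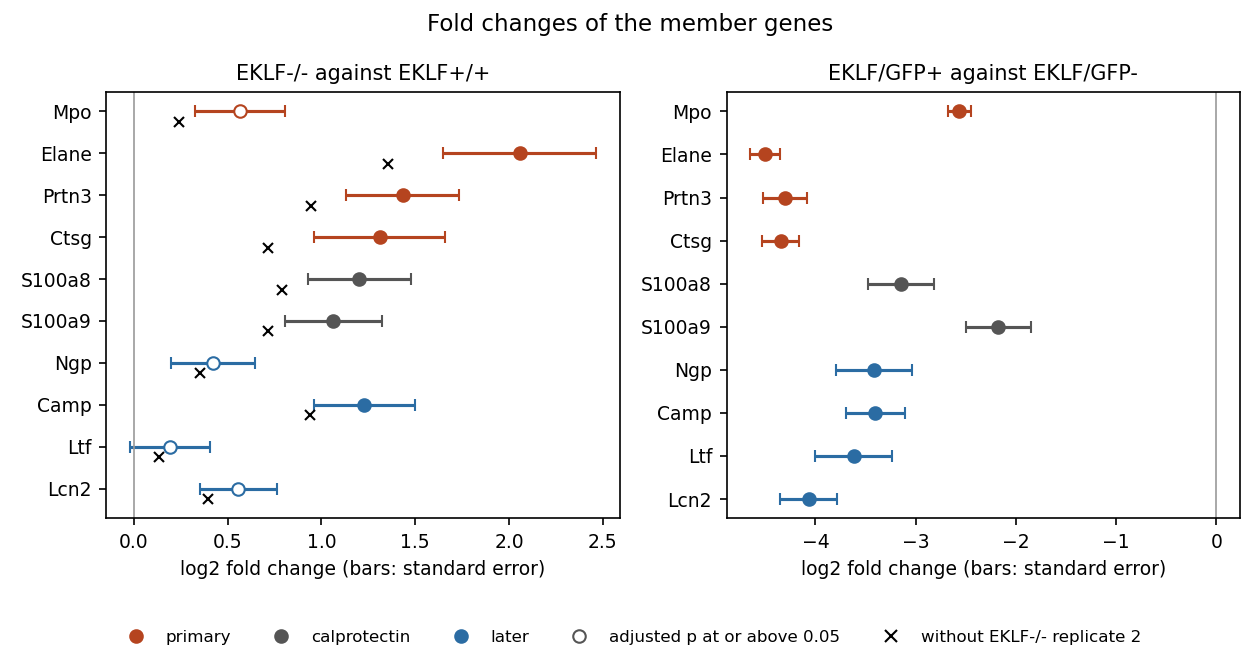
Log2 fold change of each member with its standard error (bars), and crosses for the value without EKLF-/- replicate 2, for EKLF-/- against EKLF+/+ and for EKLF/GFP+ against EKLF/GFP-. In the first comparison every point is above 0 and Elane is highest at 2.06, and in the second every point is below 0, from -4.50 for Elane to -2.17 for S100a9.

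The other lists of the granulocyte programme were read against the 25.8% of all genes called lower and 18.9% called higher in this comparison. All 9 other primary granule or promyelocyte genes fell (median log2 -2.18, Ms4a3 -3.84, Serpinb1a -3.33, Prss57 -2.52), as did 11 of 12 other secondary and tertiary granule genes (median -3.48, Wfdc21 -4.38, Mmp8 -4.04, Fcnb -3.95). All 6 NADPH oxidase subunits fell (Ncf4 -2.75, Ncf1 -2.66), as did all 8 transcription factors (Gfi1 -3.94, Cebpd -3.06, Spi1 -2.56). Of 11 receptors 9 fell, including the G-CSF receptor Csf3r (-4.00) and the formyl peptide receptor Fpr2 (-3.54). Each of 6 other S100 genes fell (S100a4 -3.84, S100a6 -3.004, S100a11 -1.82). Of 6 eosinophil, mast cell and basophil granule genes tested 4 were higher, all of them eosinophil genes, with eosinophil peroxidase Epx at log2 1.21, Ear2 at 1.11, Prg2 at 1.09 and Prg3 at 0.94. The mast cell gene Cpa3 (-0.41, edgeR adjusted p = 0.0696) and the basophil gene Mcpt8 (0.13, edgeR adjusted p = 0.688) did not pass. Neutrophil-like markers other than the members summed to 346 to 452 CPM in EKLF/GFP- and 28.4 to 63.7 CPM in EKLF/GFP+ (12 of 12 lower), and monocyte-like markers to 659 to 824 and 84.3 to 99.6 CPM (8 of 8 lower). Progenitor-like markers summed to 1083 to 1229 and 343 to 457 CPM (9 of 9 lower), and erythroid-like markers to 4311 to 5604 and 8929 to 10274 CPM (10 of 10 higher). Megakaryocyte-like markers summed to 112 to 136 and 170.4 to 236 CPM (7 of 8 higher and 1 lower), endothelial-like markers to 183 to 221 and 59.0 to 92.2 CPM (5 of 6 lower), and mast cell- or basophil-like markers to 249 to 348 and 150.4 to 200.4 CPM (2 of 7 lower, near the share of all genes). Lymphoid-like markers summed to 41.7 to 53.7 and 7.33 to 10.3 CPM (5 of 5 tested lower) and mesenchymal-like markers to 13.8 to 19.1 and 8.24 to 10.1 CPM (2 of 6 lower), while hepatoblast-like markers overlapped at 966 to 1147 and 637 to 1411 CPM (1 of 7 lower) and macrophage-like markers overlapped at 339 to 535 and 199 to 554 CPM (1 of 11 tested lower). The part of these markers in the members' differences was not tested.

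Levels of different genes were compared per length, in TPM (read counts divided by transcript length and scaled to a common total). In EKLF+/+ the highest mean was that of S100a9 at 4089 ± 751 TPM (SD, n = 3), followed by Mpo at 3612 ± 814, whose range overlapped it, and S100a8 at 2139 ± 260. Ngp was at 1106 ± 332 TPM, Prtn3 at 674 ± 110.5, Camp at 625 ± 153, Elane at 486 ± 97.5, Ctsg at 450.4 ± 82.0 and Ltf at 439 ± 143, and Lcn2 was lowest at 162 ± 45.5. Neighbours in this order overlapped in range except S100a8 with Mpo, S100a8 with Ngp, Ngp with Prtn3 and Ltf with Lcn2. In EKLF-/- the first 3 places were the same, and Elane had a mean of 1862 ± 1020 TPM. That mean rested on replicate 2, at 3017 TPM, while in replicates 1 and 3 Elane (1086 and 1484 TPM) lay below Ngp (1242 and 1702 TPM) and Prtn3 (1188 and 1506 TPM). The members held 1.25% to 1.61% of all TPM in EKLF+/+ and 2.02% to 3.36% in EKLF-/-, so these ranges did not overlap. The ratio of Elane to Mpo in TPM was 0.109 to 0.157 in EKLF+/+ and 0.256 to 0.480 in EKLF-/-. The ratio of summed primary to summed later genes overlapped, at 1.88 to 3.22 and 2.12 to 3.56.

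In the reporter libraries the members held 0.4004% to 0.464% of TPM in EKLF/GFP- and 0.0346% to 0.0703% in EKLF/GFP+. S100a9 was first in both fractions, at 1025 ± 153 TPM in EKLF/GFP- and 217 ± 88.4 TPM in EKLF/GFP+. Mpo was at 724 ± 27.3 and 114 ± 16.2 TPM, and S100a8 at 839 ± 55.3 and 90.4 ± 37.6 TPM. The ratio of S100a9 to S100a8 was 1.09 to 1.32 in EKLF/GFP- and 2.29 to 2.50 in EKLF/GFP+, and the ratio of Elane to Mpo was 0.276 to 0.306 and 0.0689 to 0.095. Levels were not compared between the 2 sets, since they were quantified with different tools.

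Single cells were then read to see which cells carried the members. The library held 3093 barcodes after filtering, with a median of 18605 counts, in 16 clusters made without the 10 member genes. With 1 library there is no test, and intervals cover counting error only. Cluster 15 (30 cells) was neutrophil-like by Retnlg, Mmp8 and Wfdc21. Cluster 6 (201 cells) led with Cstdc5, Stfa1, Cstdc4, Ms4a3, Pglyrp1 and Fcnb and had neutrophil-like markers as its highest list, but 2 of its top 10 genes were markers of that list, so it is called by its number. Cluster 3 (285 cells) had monocyte-like markers as its highest list, with Ccr2 leading as the 1 marker among its top 10 genes, and is called by its number too. Cluster 10 (104 cells) had mast cell- or basophil-like markers as its highest list, with Cpa3, Gata2 and Hdc among its top 10 genes. That list had a mean log2 of CPM plus 1 of 6.33, beside 5.88 for progenitor-like and 3.65 for lymphoid-like markers. Both of the latter were the highest of any cluster, so cluster 10 is called by its number as well. Erythroid-like clusters 4 and 7 (463 cells, median 22450 counts) served as the background, since erythroid cells should lack these genes.

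Counts of the members were found in many cells that should lack them. Of the erythroid-like cells 84.9% held a count of S100a8 and 82.3% of S100a9, and 39.96% held one of Mpo, 39.7% of Camp, 25.7% of Prtn3, 18.4% of Ngp, 16.6% of Elane, 14.0% of Lcn2, 7.13% of Ltf and 3.46% of Ctsg. Over all cells the shares were 83.2%, 81.1%, 42.8%, 43.6%, 35.4%, 21.4%, 18.5%, 18.5%, 11.5% and 7.53% in the same order. With every cell thinned to 5000 counts, leaving out 55 shallower cells, the shares over all cells were 44.7% for S100a8, 41.6% for S100a9, 19.4% for Mpo, 18.0% for Camp, 17.8% for Prtn3, 9.05% for Elane, 8.33% for Ngp, 7.80% for Lcn2, 5.07% for Ltf and 4.12% for Ctsg. A single count in a cell was therefore read as background, and levels were compared as CPM of summed counts per cluster. In the 10 clusters other than 3, 6, 10, 11, 13 and 15 the members lay between 0.63 and 4.11 times the erythroid-like level, apart from Ctsg, which reached down to 0. Clusters 4 and 7, which set that level, are among these 10. In cluster 8 a single cell held 65.6% of the Mpo counts, 70.6% of the Prtn3 counts and 74.1% of the Ctsg counts. In cluster 11 (megakaryocyte-like) 96.8% of the Ctsg counts and 43.3% of the Mpo counts came from 1 cell, and in cluster 13 (hepatoblast-like) 95.7% of the Ngp counts and 86.8% of the Lcn2 counts did. Doublets were not removed.

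Clusters 15 and 6 differed in which class they carried. In cluster 15 primary transcripts were at or near background, with Mpo at 3.97 CPM (95% exact Poisson interval 0.101 to 22.1), Elane at 11.9 CPM and Prtn3 at 31.8 CPM. Ctsg had 0 counts in 30 cells, which allows up to 11.9 CPM taken as 3 counts, and up to 14.7 CPM by the exact Poisson interval. The later genes were high there, with Ngp at 25291 CPM, Camp at 22014, Lcn2 at 10606 and Ltf at 9617, and S100a8 and S100a9 stood at 81012 and 84475 CPM. Cluster 6 carried both classes, with Mpo at 4899 CPM, Prtn3 at 4682, Elane at 2259 and Ctsg at 862, and with Camp at 7997, Ngp at 3170, Lcn2 at 1408 and Ltf at 647 CPM. S100a8 was at 26074 CPM and S100a9 at 24229 CPM in cluster 6. Cluster 6 held 92.6% of all Elane counts, 91.9% of Ctsg, 81.5% of Prtn3 and 75.1% of Mpo in the library. Cluster 15, with 0.970% of the cells, held 38.0% of Ltf, 25.3% of Ngp, 23.7% of Lcn2 and 10.6% of Camp, where cluster 6 held 57.1%, 70.9%, 70.4% and 85.6%. At a finer clustering resolution of 1.2 the cells with neutrophil-like markers numbered 118, and they held 94.97% of the Ltf counts but 5.08% of the Mpo counts. The gene for F4/80, Adgre1, was at 36.6 CPM in cluster 6 and 63.6 CPM in cluster 15, against 694 CPM in macrophage-like cluster 0 and 31.0 and 40.7 CPM in the erythroid-like clusters.

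Clusters 3 and 10 carried primary genes with Ngp, Camp and Ltf near background. In cluster 3 Mpo was at 574 CPM and Prtn3 at 531 CPM, 27.2 and 44.7 times the erythroid-like level, Elane at 70.7 and Ctsg at 13.9 CPM, while Ngp, Camp and Ltf were at 9.06, 27.8 and 3.07 CPM, at 1.06 to 1.29 times background, and Lcn2 was at 21.2 CPM, 3.43 times background. S100a8 and S100a9 were above background there, at 2821 and 1300.0 CPM, with an S100a8 to S100a9 ratio of 2.17 where cluster 6 had 1.08. In cluster 10 Mpo was at 1124 CPM and Prtn3 at 310.25 CPM, with Ctsg at 51.2 CPM. Elane (11.2 CPM), S100a8 (84.7 CPM), S100a9 (83.2 CPM) and all 4 later genes stayed within 0.63 to 1.48 times background in that cluster.

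**Figure D3:**
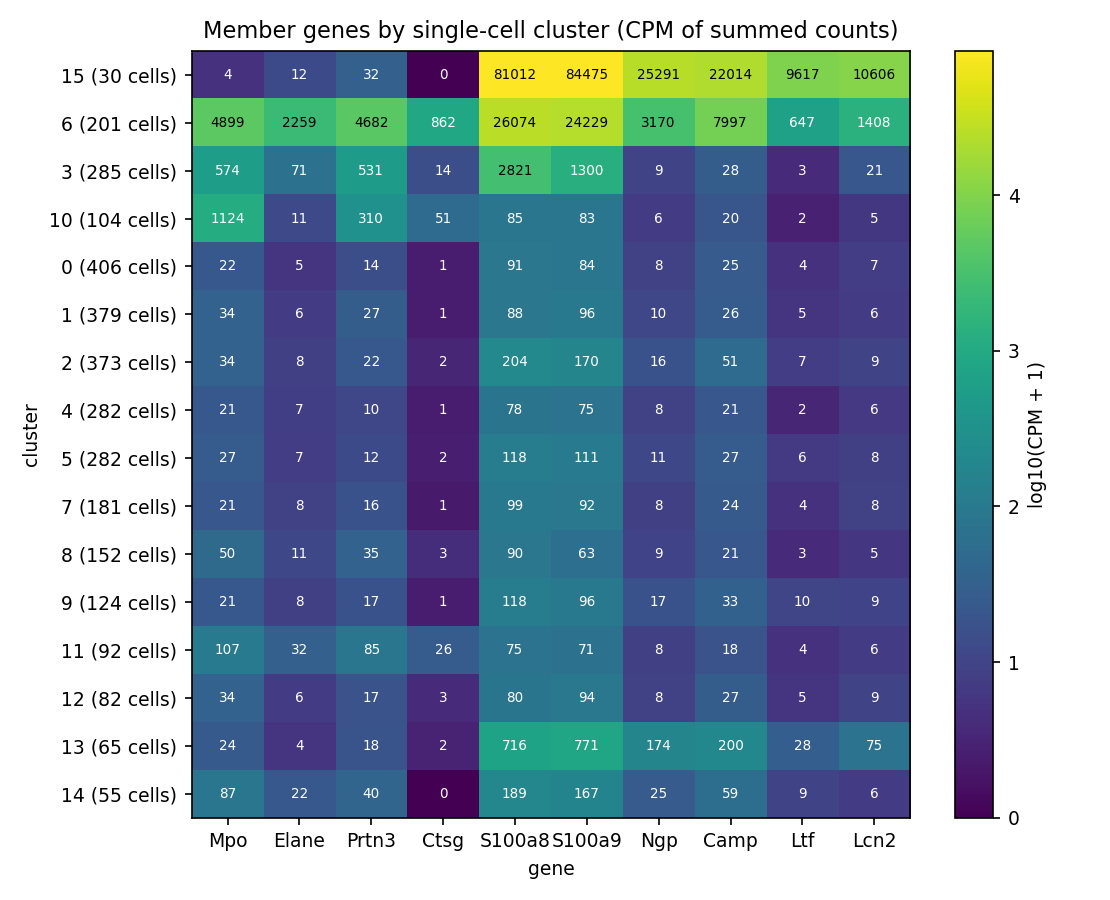
Level of each member (CPM, log scale) in the 16 single-cell clusters of the EKLF+/+ library. Later genes and calprotectin are highest in cluster 15, primary genes are highest in cluster 6, and clusters 3 and 10 carry primary genes with Ngp, Camp and Ltf near the erythroid-like level.

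Cells were then placed by summed counts, with 10 or more of the primary genes, of the later genes or of both. Primary genes alone reached this in 234 cells (7.57%, 95% Wilson interval 6.69 to 8.55), both classes in 95 cells (3.07%, 2.52 to 3.74) and later genes alone in 79 cells (2.55%, 2.05 to 3.17). The cut is on raw counts, and median counts per cell were 33482, 25702 and 10702 in these classes, so they were not compared at one depth. A primary-only cell of cluster 3 held as little as 0.027% of its counts in primary genes, and a cell with neither class as much as 0.187%. The shares moved with the cut, to 14.7%, 7.18% and 8.47% at 3 counts and 6.01%, 2.42% and 2.68% at 30 counts. These are ranges of a count and not cell types, and 130 cells had a primary sum and 65 a later sum between 5 and 20. By cluster, 98 of the 234 primary-only cells were in cluster 3, 67 in cluster 6 and 62 in cluster 10, while 90 of the 95 cells with both were in cluster 6. Of the later-only cells 43 were in cluster 6 and 29 in cluster 15. Of the cells with primary genes 28.9% also had later genes, and of the cells with later genes 54.6% also had primary genes.

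Several genes were nested in others at 10 or more counts in a cell. The cut was the same for all genes, whose counts over all cells differed. Ctsg had 5273 and Ltf 6366, against 36698 for Mpo and 52518 for Camp, so nesting cannot be told apart from these levels. All 90 cells with Ctsg also had Mpo and Prtn3, and all 150 cells with Elane had Prtn3. All 89 cells with Ltf had Camp, Lcn2 and S100a9, and all 117 cells with Ngp had Camp. No cell had both Ctsg and Ngp, and none had both Ctsg and Ltf, which allows up to 3.33% of the cells with Ctsg, taken as 3 cells. Camp reached that level together with Ctsg in 26 cells and Lcn2 did in 1. Mpo and Ltf shared 6 cells of 279 and 89.

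**Figure D4:**
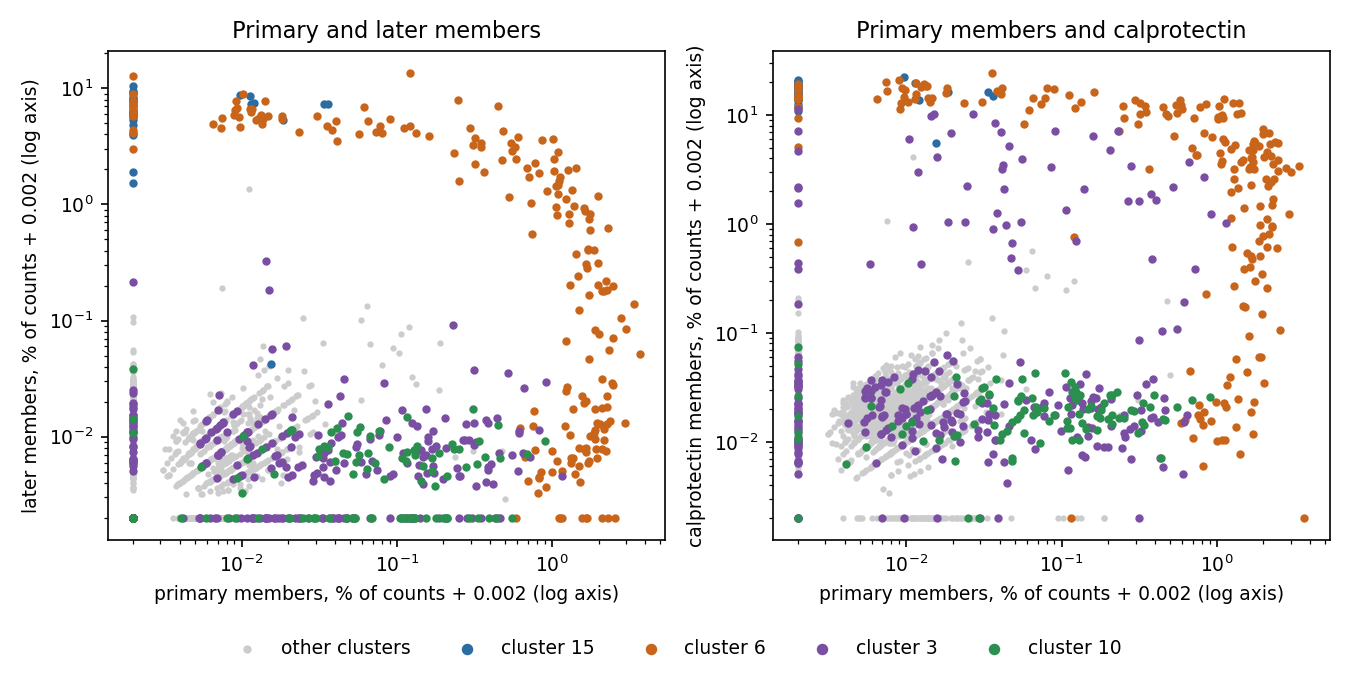
Percent of each cell's counts in the primary genes (x axis) against the later genes (left) and calprotectin (right), with 0.002 added and both axes on a log scale, 1 point per cell, coloured by cluster. Cells of cluster 6 run from primary alone through both to later alone, cells of cluster 10 spread along the primary axis alone, and some cells of cluster 3 rise along the calprotectin axis.

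Within cluster 6 the 67 primary-only cells had a median of 1.60% of their counts in primary genes and 0.0058% in later genes, the 90 with both had 1.09% and 1.31%, and the 43 later-only cells had 0.0077% and 5.78%. Calprotectin had medians of 0.147%, 6.58% and 15.3% over the same 3 sets. Calprotectin at 0.1% or more of a cell's counts was found in 168 of 201 cells of cluster 6 (83.6%), 30 of 30 of cluster 15 and 59 of 285 of cluster 3 (20.7%, Wilson 16.4 to 25.8). It was found in 0 of 104 cells of cluster 10, though 62 of them reached the primary cut. A finding of 0 allows up to 2.88% of these cells, taken as 3 cells, and up to 3.56% by the Wilson interval.

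**Figure D5:**
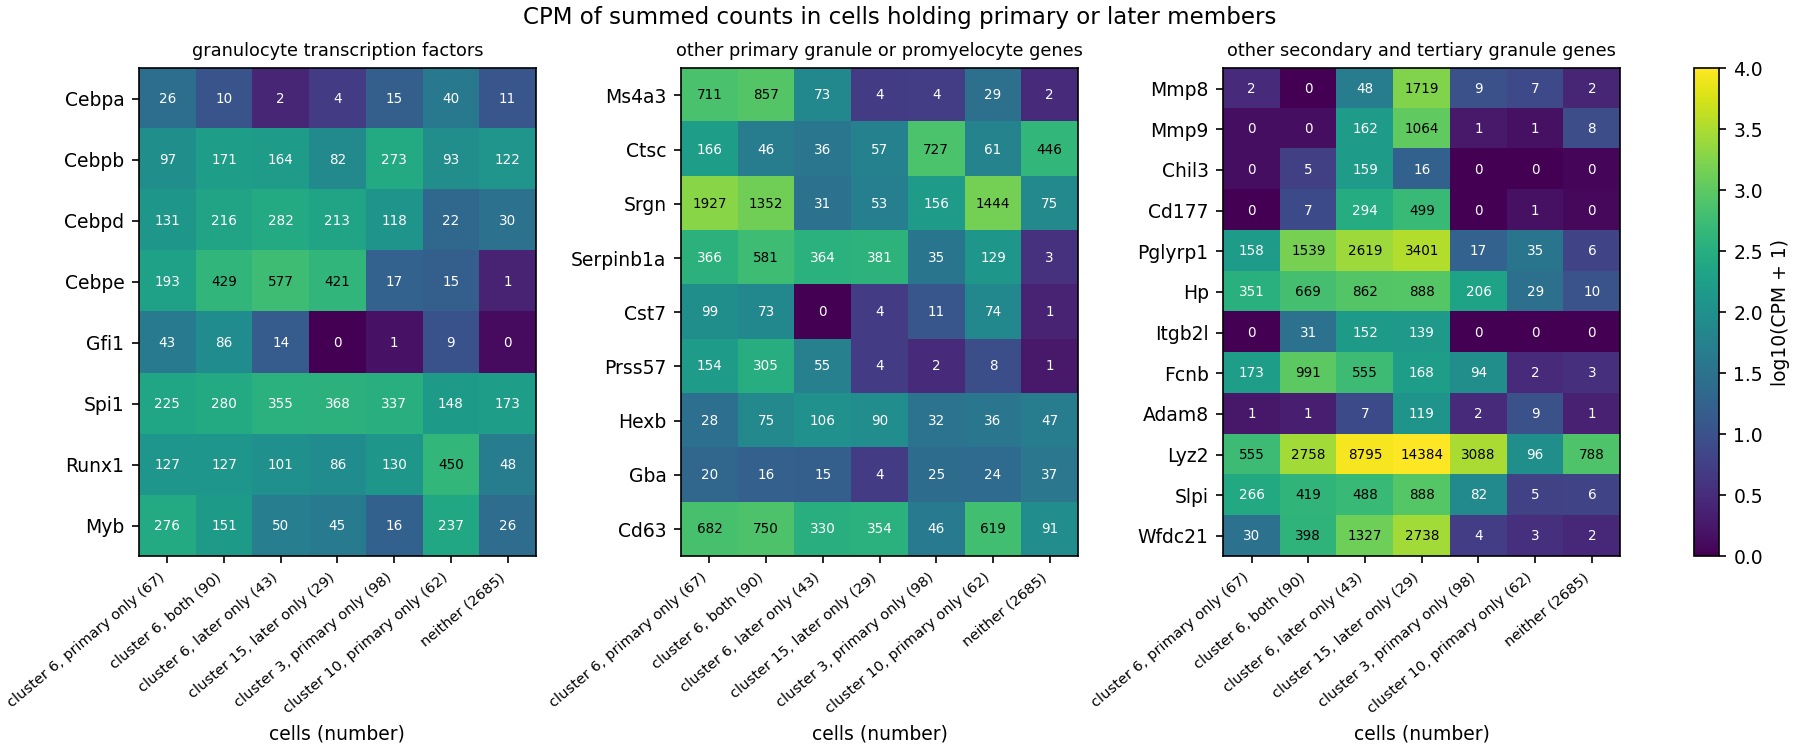
CPM (numbers, coloured by log10 of CPM + 1) of granulocyte transcription factors, other primary granule or promyelocyte genes and other secondary and tertiary granule genes in the cell sets (cluster 6 primary only, both and later only, cluster 15 later only, cluster 3 and cluster 10 primary only, and neither), with the number of cells in parentheses. Ms4a3 is highest in cluster 6 cells with both classes at 857 CPM, Cebpe in the later-only cells of cluster 6 at 577 CPM, and Mmp8 in cluster 15 at 1719 CPM.

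Other genes of the granulocyte programme differed between these cell sets, as the heat map of cell sets shows. Ms4a3, a promyelocyte gene, was at 711 CPM in cluster 6 primary-only cells, 857 in cells with both and 73.4 in later-only cells, and at 4.09 CPM, a single count, in cluster 15. Cebpe, a factor needed for secondary granules, ran 193, 429, 577 and 421 CPM over the same 4 sets, and Gfi1 ran 42.6, 86.1 and 13.7 CPM over the 3 sets of cluster 6. Mmp8 was at 47.8 CPM in later-only cells of cluster 6 and 1719 CPM in cluster 15, and Mmp9 at 162 and 1064 CPM. The lysozyme gene Lyz2 was at 555.4, 2758, 8795 and 14384 CPM over the 4 sets. Prg2, an eosinophil gene, was at 406 CPM in the cluster 6 primary-only cells, and Cpa3 at 497 CPM and Mcpt8 at 129 CPM in the cluster 10 primary-only cells. Klf1 was at 49.2 CPM in cells with neither class and at 1.18, 1.60 and 5.12 CPM in the 3 sets of cluster 6.

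Over all 3093 cells the non-member genes most like the summed primary genes, by Pearson correlation of log-normalized values, were Ms4a3 (0.76), Ramp1 (0.72), Atp8b4 (0.71), Serpinb1a (0.70) and Prss57 (0.68). Those most like the summed later genes were Pglyrp1 (0.90), Cstdc4 (0.89), Stfa3 (0.87), Stfa2l1 (0.87) and Wfdc21 (0.86). These describe cells of 1 library, which share depth and free RNA.

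Protein-coding genes within 50000 bases of a member numbered 34. Of the 23 tested in EKLF-/- against EKLF+/+ R3hdm4 (log2 0.50) and Kiss1r (1.31), both near Elane and Prtn3, rose, and Dnm1 near Lcn2 fell (-1.50), with a median of 0.21, where 9.72% of all genes tested were called higher and 10.6% lower. Of the 21 tested in the reporter comparison 2 rose and 7 fell, with a median of -0.06, beside 18.9% higher and 25.8% lower over all genes tested. Plppr3, annotated up to chr10:79874634, overlaps only the annotated start of Prtn3 at 79874476 and was at log2 -4.81 in the reporter comparison. Whether these genes share reads was not tested.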

How the data were processed

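F4/80+ cells were sorted from E13.5 FL (bulk) or selected with magnetic beads (single cells). For EKLF+/+ and EKLF-/- the deposited values are read counts per gene, which the authors made with STAR on mm10 and htseq-count. For the EKLF/GFP fractions the authors deposited Salmon estimated counts and TPM per transcript on Ensembl GRCm38; estimated counts were summed per gene here and rounded. TPM of EKLF+/+ and EKLF-/- were computed here from GENCODE exon lengths (97.9% of gene rows had one), and 1919 older symbols were translated. The authors also deposited normalized counts of the EKLF/GFP libraries (a signal, gene counts divided by DESeq2 size factors), which served as an alternative. Their columns of fold changes and p-values were not used, nor were 5 repeated columns in one file. The single-cell counts were made by the authors with Alevin on GRCm38.p6.

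Genes reaching 10 counts in 3 or more of the 6 libraries of a comparison were fitted with edgeR 4.0.16 (R 4.3.3, TMM, quasi-likelihood test, no covariates), each comparison apart, two-sided at an adjusted p of 0.05. Alternatives were DESeq2 1.42.0, limma 3.58.1 on log2 of the authors' normalized counts plus 1 or 10, other size factors and filters, globin genes left out, transcript length offsets, gene length correction, a replicate block, other cell cuts and clusterings, and leaving out each library. The scripts were tested on simulated data. Single cells with at least 200 detected genes were clustered without the members in Seurat 5.3.0 (4000 variable genes, 30 components, resolution 0.8). Scrublet in scanpy 1.11.5 marked 0 of 3093 barcodes at its automatic cutoff, so it did not work as a filter and no doublets were removed. To compare shares of cells at one depth, cells were also thinned to 5000 counts, leaving out 55. The genes named beside the members were the 3 with the largest change among those called in each list, and the 5 most correlated with each class. Some genes that this rule names are not reported here. Mmp8 and Myb in EKLF-/-, the genes given by cell set, and the neighbouring genes were picked after their values were seen. The members and lists were chosen with earlier results of these data known.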

Additional observations from a re-analysis of the deposited data

How the results depend on the processing

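With 1 library left out at a time, genes called higher ranged over 346 to 1730 and lower over 575 to 1889 of all genes, against 1239 and 1356 with all libraries, members called higher over 0 to 8 (main 6), and other listed genes called higher over 3 to 30 (main 21) and lower over 0 to 3 (main 2). Over all genes, deviations of same-numbered replicates had correlations of -0.01, 0.00 and 0.06 in EKLF-/- and EKLF+/+. In the EKLF/GFP fractions they were 0.03, -0.09 and 0.03, where differently numbered replicates gave -0.16 to 0.17. The third replicate was still the highest of its group for Lcn2, Ltf and Ngp in both fractions. With 3 libraries per group these values neither show nor exclude a pairing by number. With a replicate block 864 genes were higher and 1037 lower in EKLF-/-, 0 other listed genes were lower, Ctsg was no longer called (edgeR adjusted p = 0.0697) and Lcn2 was (edgeR adjusted p = 0.026), while 2360 genes were higher and 3425 lower in EKLF/GFP+. Correction for gene length gave 1852 higher and 1323 lower in EKLF-/-, and 4746 higher and 2821 lower in EKLF/GFP+ (2696 and 3678 without it), and 4376 higher with the replicate block and gene length correction together. In EKLF-/-, 65 of 84 refitted values of the 6 called members kept the call and 19 lost it, 6 of 56 of the 4 uncalled members gained one, and in EKLF/GFP+ all 170 of the members kept it. For the named genes of the other lists 48 of 224 values lost the call in EKLF-/- and none of 349 in EKLF/GFP+. The share of cells with primary genes alone was 14.7% at 3 counts, 6.01% at 30 counts and 6.66% at 0.1% of a cell's counts, and with both classes 7.18%, 2.42% and 2.46%, and with later genes alone 8.47% at 3 counts. At a finer clustering resolution of 1.2 the cells with neutrophil-like markers numbered 118 and held 94.97% of Ltf but 5.08% of Mpo counts, where the 231 such cells of the main clustering held 75.1% of Mpo.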
